A study of Glycine max with 44 samples.

Results

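Tap root tips of 1 cm from the aluminium-sensitive soybean genotype Young were compared after 72 h and after 48 h in 10 µM aluminium (Al). The comparison rests on 6 of the 44 arrays of the series, the 3 labelled Young, Al, 72 h and the 3 labelled Young, Al, 48 h, and it was read on the 35289 soybean probe sets that passed a filter on dim signal. Seedlings stood in hydroponic solution in a growth chamber, and total RNA of the tip of the tap root was hybridised to Affymetrix soybean GeneChips. Beside these arrays stand 6 of untreated Young (0 µM Al, 3 at 48 h and 3 at 72 h) and 6 of the Al-tolerant genotype PI416937 in 10 µM Al (3 at 48 h and 3 at 72 h), with 3 of untreated PI416937 at 48 h. The labels do not give the age of the plants, whether plants were pooled, or whether replicates were grown apart. The p-values therefore reflect only how these samples varied, which may be technical variation.

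Levels are given as log2(intensity + 16), the deposited intensity being on a linear scale, and differences are differences of group means on that scale. They understate the change of dim genes. The background is 4.41, the 95th percentile of the mean levels of probe sets for other organisms. A difference from a group mean at or under it is a lower limit. Differences were tested with limma across all tested probe sets, with values after ± being standard errors of the contrast unless SD is given (n = 3 arrays per group), and the threshold for a call was an adjusted p of 0.05. Whole root tips were sampled, so fewer cells of a type and less RNA per cell cannot be told apart.

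The 3 Al arrays at 72 h carry the sample codes 39, 40 and 41, and the untreated arrays at 72 h carry 42, 43 and 44. The Al arrays at 48 h carry the codes 9, 21 and 37, and the untreated ones 12, 24 and 38. What the codes stand for is not given. Runs of codes were set here, as 1 to 12, 13 to 24 and 25 to 44. On that cut time and run move together, except for the single 48 h array per group that falls in the last run. Their part in the results can be read only through those arrays. The 72 h codes of Young follow one another. Were they a run of their own, no array would tell time and run apart. The Young arrays went with their labels: WRKY30 lay between 9.53 and 10.99 on all 6 Al arrays and between 4.39 and 4.50 on the 6 untreated ones. In PI416937 the 3 arrays labelled Al at 72 h lay at 4.42, 4.46 and 4.44 for WRKY30, whereas 1 of the 3 labelled untreated at 72 h lay at 7.85. Whether the PI416937 labels at 72 h hold was not tested, and each value below that uses the arrays labelled PI416937, Al, 72 h carries this limit. The 3′ minus 5′ difference (log2) of control probe sets is a sign of RNA integrity. For GlutTrans it was 1.49, 0.69 and 1.42 in the Al arrays at 48 h and 1.62, 1.07 and 1.29 at 72 h. It lay between 1.62 and 2.23 on the untreated arrays. With Al the times overlapped for GlutTrans and both actin controls, but not for ubiquitin (0.015 to 0.018, then 0.020 to 0.095). In untreated Young the times did not overlap for ubiquitin either (0.014 to 0.021, then 0.027 to 0.129). They also did not overlap there for actin (7.79 to 8.00, then 8.10 to 8.18). Nor did they for the r2 actin control (0.94 to 1.42, then 0.77 to 0.92), which was 1.05 to 1.61 with Al at 72 h. The part of these differences in the results was not tested. Of the lists that mark other tissues, the 25 storage protein probe sets had a median level between 4.51 and 4.61 in the 4 Young groups, close to background, and the highest of them was the lipoxygenase gene LOXB1. The 18 photosynthesis probe sets had median levels of 5.53 and 5.95 with Al at 48 h and 72 h and of 6.64 and 6.62 without Al, with PSAD the highest, and their summed intensity ranged from 9330 to 12355. The 15 nodule probe sets had medians of 7.04 and 8.00 with Al and of 7.34 and 8.04 without, led by SS, a sucrose synthase. None of these lists had a call between 48 h and 72 h, and their part in the results was not tested. The levels of the expansin genes EXPB2 and EXP1, planned as root markers, were not read, so the tissue was not checked from its own markers.

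Aluminium ions in acid solution stop root growth at the tip, where the metal binds cell walls and membranes. In plants the exposed tip is known to raise genes of oxidative stress and of defence. Among these are WRKY, NAC and MYB transcription factors, glutathione S-transferases that conjugate toxic compounds, cytochrome P450 enzymes, and ferritin, which stores iron. Legumes make isoflavonoids, and soybean turns them into glyceollins, antimicrobial pterocarpans, through chalcone synthase, isoflavone synthase, isoflavone reductase, pterocarpan synthase and prenyltransferases.

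From 48 h to 72 h in Al, Young showed almost no called difference. Of 35289 tested probe sets limma called 1 (0.00283%), 0 higher and 1 lower, while 2767 had an unadjusted p under 0.05. That probe set has no annotated gene. Its levels were 4.80, 4.79 and 4.83 at 48 h and 4.54, 4.55 and 4.51 at 72 h, a fall of 0.28 ± 0.04 close to background (adjusted p = 0.019). The median difference over all tested probe sets was -0.00049, and the differences ran from -0.55 to 0.56 between their 5th and 95th percentiles.

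A missing call is not a sign that levels were equal. The median standard error was 0.23, and the 95% interval of the difference stayed within 2-fold in both directions for 26300 probe sets, or 74.5%. For the others a change of 2-fold or more lay inside the interval. The 72 h arrays lay all above the 48 h arrays for 1659 probe sets (4.7%) and all below them for 2319 (6.57%). With 3 arrays against 3, shares near these arise by order alone, so they are not counts of changed probe sets. Differences of at least 2-fold were measured for 328 probe sets upward and 237 downward, none of them called, and in 69 and 79 of these the arrays of the 2 times did not overlap. The count moved with single arrays: leaving out 1 array of either group gave from 1 to 21 calls, the highest being 4 higher and 17 lower without the Al 48 h replicate 3, which is the 48 h array in the last run of codes. Without any 1 Al array at 72 h there were 4 to 6 calls, and without Al 48 h replicate 2 there were 6. With that 48 h array alone set against the 72 h arrays, 50 were called, 3 higher and 47 lower, and the spread of the lone array was then assumed to be that of the other groups.

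The WRKY factors, which bind W-box elements in the promoters of defence and stress genes, gave the largest Al responses of the WRKY, NAC and MYB lists at both times, and none was called between 48 h and 72 h. WRKY30 stood at 10.98, 10.99 and 10.21 at 48 h and at 9.53, 10.77 and 9.90 at 72 h. The highest 72 h array lay among the 48 h arrays, and the other two lay below all of them. The difference was -0.66 ± 0.63 (interval from -1.95 to 0.63, adjusted p = 0.861), and its 2 probe sets gave -0.66 and -0.30. Untreated roots were at 4.43, 4.46 and 4.50 at 48 h and at 4.42, 4.39 and 4.40 at 72 h. WRKY30 was thus raised by 6.26 ± 0.63 at 48 h (adjusted p = 1.02e-06) and by at least 5.67 ± 0.63 at 72 h (adjusted p = 2.71e-06), the untreated mean at 72 h being at background.

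WRKY57 had levels of 10.74, 11.16 and 10.42 at 48 h and of 9.80, 10.96 and 10.58 at 72 h in Al, against 5.65 to 6.22 in untreated roots. Its arrays of the 2 times overlapped, with a difference of -0.33 ± 0.50 (interval from -1.35 to 0.70, adjusted p = 0.966). For WRKY58, the brightest of these factors, the arrays read 13.04, 12.97 and 13.22 at 48 h and 12.26, 13.21 and 13.02 at 72 h. Its difference was -0.25 ± 0.57 (interval from -1.42 to 0.92, adjusted p = 1). Untreated WRKY58 was at 9.44, 8.84 and 9.44 at 48 h and at 9.97, 9.90 and 9.94 at 72 h, so all Al arrays exceeded all untreated ones at both times. WRKY17 read 10.20, 10.45 and 9.98 at 48 h and 8.88, 10.15 and 9.99 at 72 h, with overlapping arrays and a difference of -0.54 ± 0.74. In WRKY30, WRKY57, WRKY58 and WRKY17 alike, Al 72 h replicate 1 was the lowest of the 3 arrays at 72 h. Of the 104 WRKY probe sets in 53 genes, 0 were called between the times. An unadjusted p under 0.05 was met by 5, against 2767 of all 35289 tested. The median difference was 0.02, with a range from -0.66 to 1.02.

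**Figure D1:**
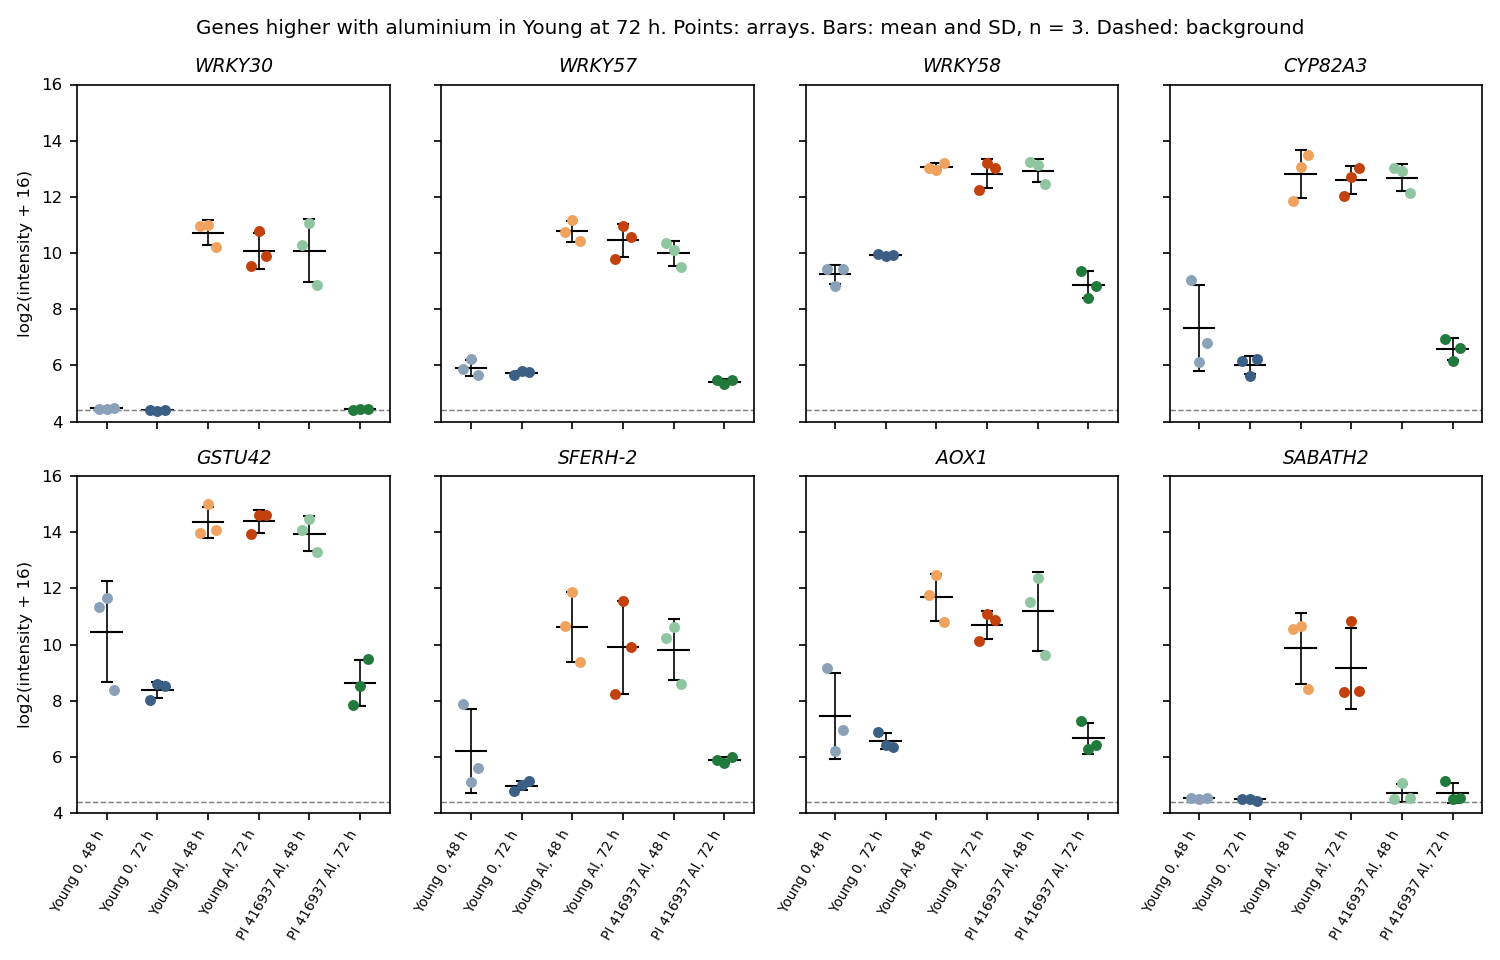
Level, as log2(intensity + 16), of 8 genes called higher with Al at 72 h in Young, for untreated and Al-treated Young and Al-treated PI416937 at 48 h and 72 h; points are arrays, bars and error bars the mean and SD (n = 3), and the dashed line is background at 4.41. The orange and red points of Young overlap in range for each gene and stand above the untreated points, with untreated 48 h replicate 1 raised for SFERH-2, AOX1 and CYP82A3, and for WRKY30 the dark green points, labelled PI416937, Al, 72 h, lie near background. SFERH-2 is shown by its probe set with a difference of -0.74.

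Among enzymes of oxidation and detoxification no probe set of the P450, glutathione S-transferase or antioxidant lists was called between the times. An unadjusted p under 0.05 was met by 2 of 52, 4 of 58 and 3 of 37, against 2767 of all 35289 tested. CYP82A2 and CYP82A3 are cytochrome P450 genes of soybean. For CYP82A2, 3 probe sets were measured and all 3 were raised by Al at both times. The one with the smallest p between times read 7.0, 9.06 and 9.22 at 48 h and 9.21, 9.84 and 8.94 at 72 h, with Al 48 h replicate 1 lowest. Its difference was 0.90 ± 1.0 (interval from -1.14 to 2.95, adjusted p = 0.899), and with single arrays left out it ran from 0.19 to 1.30. CYP82A3 had 4 probe sets with differences from -0.77 to 0.03. The one chosen by smallest p was dim, at 4.43, 5.16 and 4.51 and then 4.43, 4.43 and 4.46, with a difference of -0.26 ± 0.22 (adjusted p = 0.814). A brighter CYP82A3 probe set read 11.86, 13.08 and 13.51 at 48 h and 12.04, 12.70 and 13.04 at 72 h. There the arrays overlapped fully, with -0.22 ± 1.34 (interval from -2.95 to 2.51), too wide to bound a change. The arrays of AOX1, the mitochondrial alternative oxidase, were at 11.76, 12.49 and 10.80 at 48 h and at 10.13, 11.10 and 10.87 at 72 h, a difference of -0.98 ± 0.99 (adjusted p = 0.875).

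Among 58 glutathione S-transferase probe sets in 38 genes, none was called between the times and the median difference was -0.06. GSTU47, called higher with Al at 72 h and not at 48 h, was named after its values were seen. It read 10.10, 11.55 and 10.03 at 48 h and 9.59, 10.73 and 11.40 at 72 h, a difference of 0.01 ± 1.12 with overlapping arrays. The untreated arrays of GSTU47 were far apart at 48 h, at 7.29, 8.37 and 4.64, and close at 72 h, at 4.82, 5.39 and 5.01. GST3 stood at 11.53, 12.51 and 10.93 and then at 10.45, 12.38 and 11.18, a difference of -0.32 ± 0.88. The 52 cytochrome P450 probe sets in 31 genes gave a median of 0.03 with 0 calls.

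Ferritin, the iron store, had the lowest difference among the genes of earlier interest in the series. SFERH-2 was at 10.60, 11.63 and 9.60 at 48 h and at 7.82, 10.84 and 9.55 at 72 h. Only Al 72 h replicate 2 lay inside the 48 h range, and replicate 1 lay well below it. The difference was -1.21 ± 0.95 (interval from -3.14 to 0.73, adjusted p = 0.792), and its 4 probe sets ran from -1.21 to -0.48. Leaving out single arrays moved the first of these between -1.92, without Al 72 h replicate 2, and -0.41. Untreated SFERH-2 was 8.05, 4.61 and 5.77 at 48 h, where replicate 1 stood apart, and 4.56, 4.90 and 5.25 at 72 h. In untreated roots the same probe set differed by -1.24 ± 0.95 between the times. Other members of the ferritin and metal list, SFERH-4 with 0.10 ± 0.24 and SFERH-3 with differences of -0.54 to 0.01, were also not called.

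In the isoflavonoid and glyceollin pathway, chalcone synthase CHS1, which makes the chalcone precursor, read 10.41, 9.62 and 12.62 at 48 h and 11.46, 12.65 and 11.19 at 72 h. Al 48 h replicate 3 was as high as the highest 72 h array, and the other 48 h arrays lay below all 72 h arrays. The difference was 0.88 ± 0.81 (interval from -0.77 to 2.54, adjusted p = 0.847) and became 1.75 without that replicate. CHS1 had 7 probe sets with differences from -0.04 to 0.88. Set against Al 48 h replicate 3 alone, the 72 h arrays of the same probe set were at -0.85, so its direction turned with the 48 h arrays used. G4DT, a prenyltransferase of glyceollin synthesis, read 7.30, 8.28 and 6.62 and then 6.34, 7.13 and 6.95, a difference of -0.59 ± 0.65 (interval from -1.92 to 0.74, adjusted p = 0.898).

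IFS2, isoflavone synthase, read 13.24, 14.02 and 13.39 at 48 h and 13.31, 13.97 and 13.50 at 72 h. Its difference of 0.04 ± 0.32 had an interval from -0.61 to 0.69, within 2-fold. The pterocarpan synthase PTS1 differed by 0.32 ± 0.88 and CYP93A1, which hydroxylates the pterocarpan skeleton, by 0.16 ± 0.92. Over the 78 phenylpropanoid and isoflavonoid probe sets in 38 genes the median was -0.02, with 0 calls. The plasma membrane aquaporin PIP2-8 was dim throughout, at 4.79, 4.54 and 4.87 at 48 h and 4.59, 4.53 and 4.85 at 72 h, with a difference of -0.08 ± 0.22 (interval from -0.53 to 0.37, adjusted p = 1).

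Further genes were chosen here after their values were seen, by their unadjusted p between the times or as members of a list. They are a selection and not the largest differences of all. None was called, with adjusted p of 0.635 or more. The pathogenesis-related list, 11 probe sets in 7 genes, had the highest median of the 26 lists at 1.13, against -0.00049 for all tested probe sets. PR1-1, a secreted defence protein, read 4.57, 9.78 and 8.13 at 48 h and 12.07, 9.59 and 9.07 at 72 h, a difference of 2.75 ± 1.86. Al 48 h replicate 1 was near background, while Al 72 h replicate 1 was the highest of all. PR-10, an intracellular defence protein, was at 10.80, 12.51 and 11.06 and then at 12.26, 13.87 and 11.91, a difference of 1.22 ± 1.60 with overlapping arrays, and its other probe set gave -0.34 ± 1.26. Its untreated arrays were 9.43, 8.01 and 4.71 at 48 h and 4.51, 4.52 and 4.52 at 72 h.

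PGIP4, which codes for an inhibitor of fungal polygalacturonases, had 4.42, 5.02 and 6.19 at 48 h and 6.26, 6.79 and 6.92 at 72 h. All its 72 h arrays lay above the 48 h arrays, with a difference of 1.45 ± 0.42 (interval from 0.59 to 2.30, adjusted p = 0.635). The chitinase gene CHIA1 read 6.60, 8.23 and 8.15 and then 8.14, 10.21 and 8.66, a difference of 1.34 ± 0.75. PR10, annotated apart from PR-10, went the other way in its values, with -0.84 ± 0.68. The locus gene LOC100782177 had the most extreme difference among the genes of the genotype test below, 2.29 ± 0.82, from 5.80, 8.30 and 7.41 to 8.88, 12.25 and 7.25.

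The cell cycle and histone list had the lowest median of the lists, -0.93 over 7 probe sets in 3 genes. Of the 7, 4 had an unadjusted p under 0.05, against 2767 of all 35289 tested. Those 4 are the probe sets of PCNA (LOC548079), the sliding clamp of DNA replication, with differences from -1.03 to -0.62. One of them read 11.87, 11.11 and 10.66 at 48 h and 10.28, 10.63 and 9.95 at 72 h, with no overlap, a difference of -0.93 ± 0.36 (adjusted p = 0.635). In untreated Young the same probe set read 11.49, 10.98 and 11.18 at 48 h and 10.31, 10.14 and 10.14 at 72 h, a difference of -1.02 ± 0.36 (adjusted p = 0.231). Histone H4 had a probe set with -1.40 ± 0.90, read as 9.08, 10.12 and 6.86 and then 7.18, 7.29 and 7.39, and a brighter one with 0.13 ± 0.25. The remaining gene of the list, CDC48, differed by -0.07 ± 0.22, so the low median rests mainly on PCNA.

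Heat shock genes had a median of -0.22 over 33 probe sets. The small heat shock protein gene HSP17.5-E read 10.80, 10.37 and 12.42 at 48 h and 9.01, 10.44 and 10.36 at 72 h, a difference of -1.26 ± 0.80 (adjusted p = 0.717). The chaperone gene HSP90-1 gave -0.53 ± 0.18 for a dim probe set and values from -0.96 to -0.30 for its other probe sets, and its bright probe sets differed by -1.36 to -0.57 in untreated roots. Some water and sugar transport genes had measured differences above 0, while the 43 aquaporin probe sets had a median of 0.08, with a range from -1.0 to 1.07, and the 24 of the sugar list one of 0.17. PIP2-2, a plasma membrane aquaporin, read 10.07, 10.65 and 10.89 and then 11.26, 11.03 and 11.35, a difference of 0.68 ± 0.20 without overlap, and it differed by 0.72 ± 0.20 in untreated roots. The sugar transporter SWEET42 differed by 0.82 ± 0.29 with Al and by 0.61 ± 0.29 without, and the aquaporin SIP1-3 by 0.76 ± 0.27 and 0.97 ± 0.27.

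**Figure D2:**
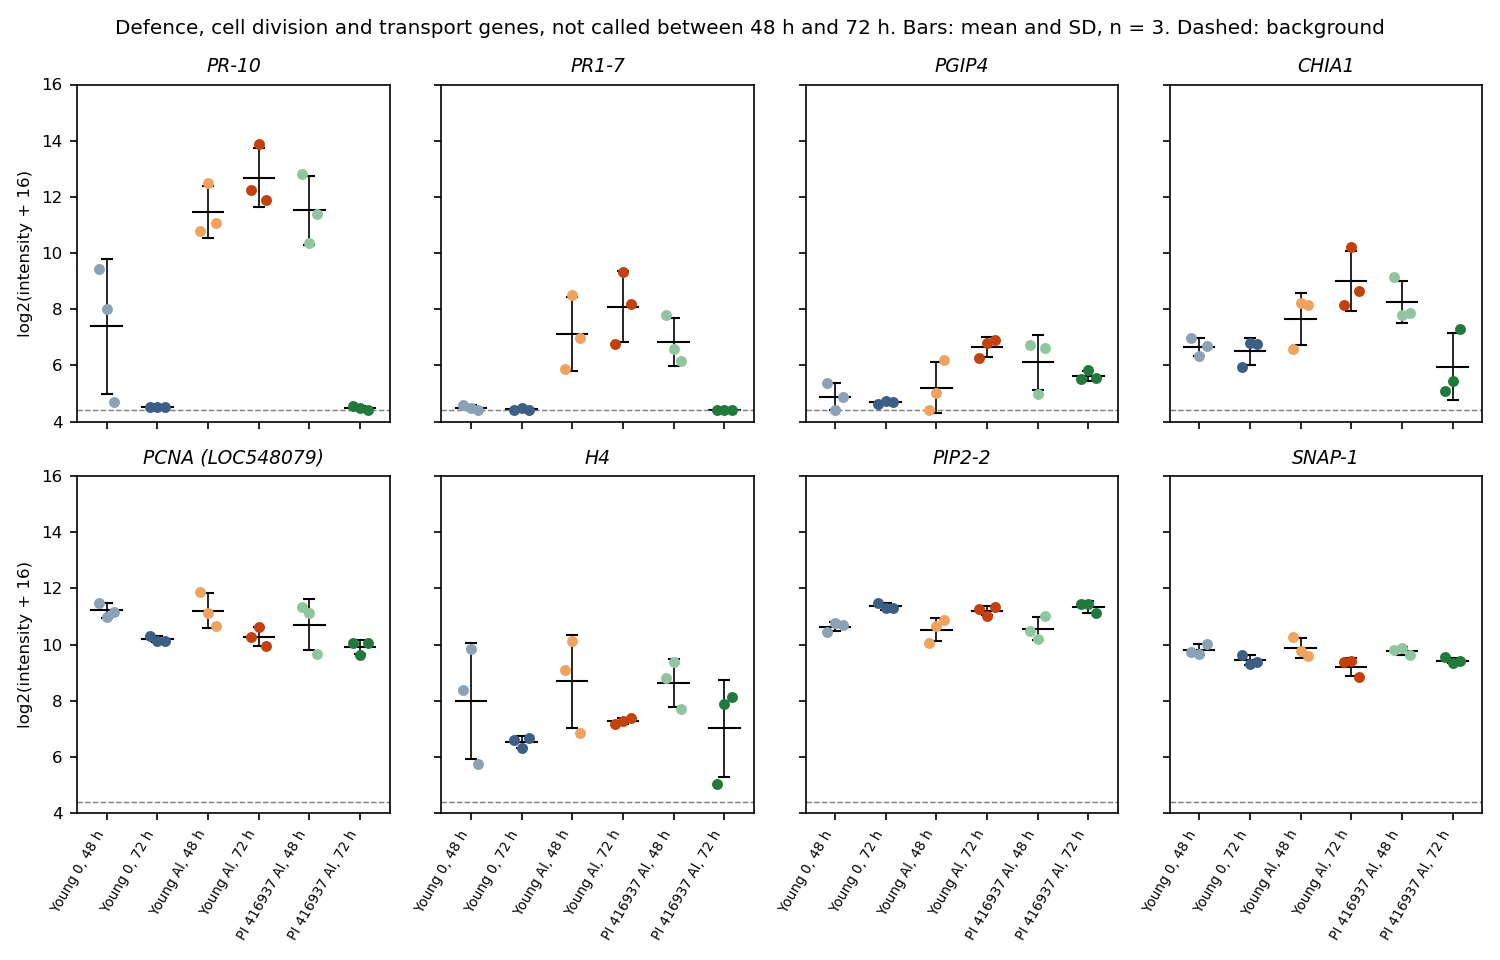
Level, as log2(intensity + 16), of 8 genes with large or steady measured differences between 48 h and 72 h that were not called in Young with Al; points are arrays, bars and error bars the mean and SD (n = 3), and the dashed line is background at 4.41. PCNA lies lower at 72 h in both treatments of Young, PGIP4 lies higher at 72 h in the Al arrays, by 1.45 ± 0.42 without a call, and PR-10 has widely spread untreated arrays at 48 h.

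None of the 26 lists had a call between the times with Al, against 0.00283% of all tested probe sets. Beside those given above, list medians lay between -0.42 for ferritin and metal carriers (18 probe sets) and 0.54 for the glyoxylate cycle (3 probe sets). Regulators of the NAC and MYB families (138 probe sets in 85 genes) had a median of 0.01, and the organic acid and Al tolerance list (17 probe sets, among them malate and citrate transport genes) had 0.04. Jasmonate and lipoxygenase genes (39 probe sets) stood at -0.25, aquaporins (43 probe sets) at 0.08 and antioxidant enzymes (37 probe sets) at -5.45e-05.

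Untreated Young, read over the same times on other arrays, had 7 called probe sets (0.0198%), all higher at 72 h, and 5160 at an unadjusted p under 0.05. A single one had an annotated gene, LOC100786061, with 0.54 ± 0.08 (adjusted p = 0.00477) and 0.07 with Al. The 7 differences ran from 0.33 to 1.17, between group levels of 4.43 and 5.83, against a background of 4.41. The direction of the calls turned with the last run alone at 48 h (1 higher, 53 lower) and with the compared groups alone (0 higher, 1 lower). Without untreated 48 h replicate 3 the count was 102 (63 higher, 39 lower), without 48 h replicate 2 it was 19, without 72 h replicate 3 it was 18, without 48 h replicate 1 it was 3, and without 72 h replicate 1 it was 2. The test of the difference between the treated and the untreated time course called 0 of 35289 (0%), with 534 at an unadjusted p under 0.05. Leaving out single arrays gave from 0 to 3 calls in that test, with 3 without Al 48 h replicate 3 and 2 each without Al 72 h replicate 1 and untreated 48 h replicate 2. For MYB73, a MYB factor, the untreated level read 8.79, 8.95 and 6.72 at 48 h and 6.5, 6.17 and 6.06 at 72 h, while with Al it read 10.67, 10.76 and 8.86 and then 10.37, 10.58 and 9.09. Its time difference was -0.09 ± 0.54 with Al and -1.91 ± 0.54 without, and the difference of those, 1.83 ± 0.77, was not called (adjusted p = 1).

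Which Al responses were present at both times was counted from comparisons that share no array. The spread per probe set and the filter were shared by both, so the calls at the 2 times are not independent. At 48 h limma called 979 probe sets with Al against without (2.77%), 869 higher (2.46%) and 110 lower (0.312%). At 72 h it called 1306 (3.7%), 1059 higher (3%) and 247 lower (0.7%), or 1016 higher and 560 lower after quantile normalisation of the arrays. A total of 557 were higher at both times, which is 64.1% of those at 48 h and 52.6% of those at 72 h. Only 26 were lower at both, 23.6% and 10.5%, and 0 changed in opposite directions. A probe set called at one time and not at the other is not shown to differ between them, since the test of that difference called none. The counts moved with single arrays. At 48 h they were 407 without Al replicate 2, 565 without untreated replicate 1 and 587 without untreated replicate 3. At 72 h they were 2139 without Al replicate 1, 287 without Al replicate 2, 523 without Al replicate 3, and from 580 to 659 without any 1 untreated array.

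**Figure D3:**
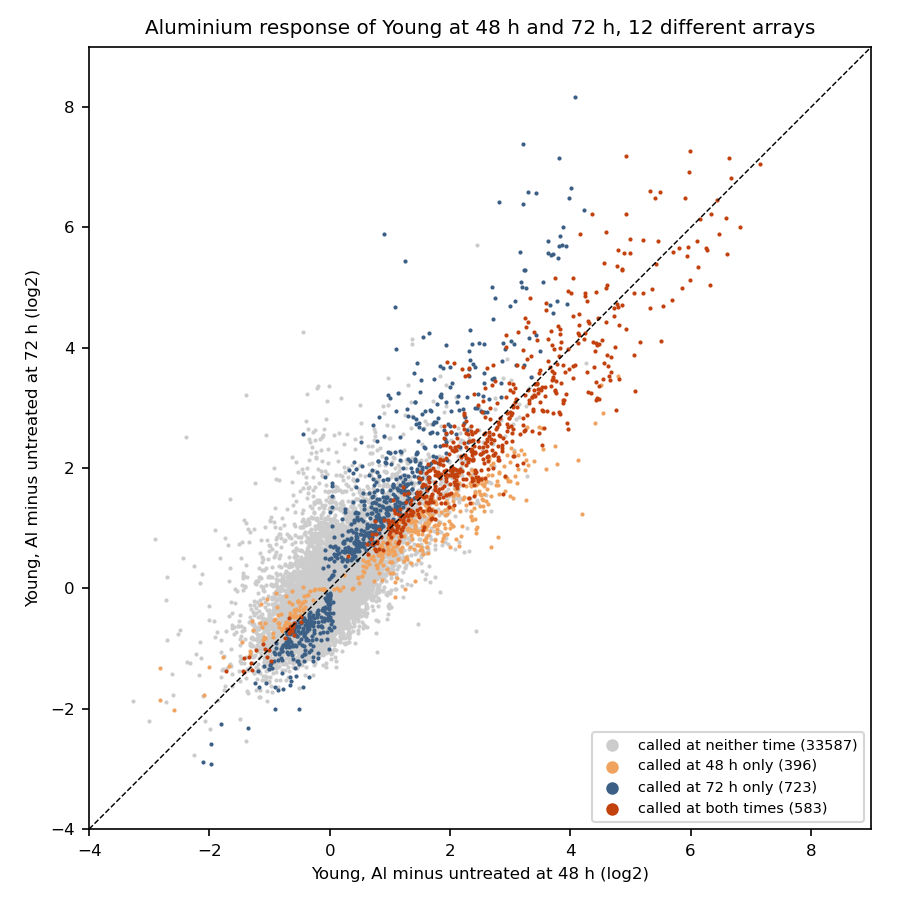
Al minus untreated in Young at 48 h (x axis) and at 72 h (y axis), both in log2 units, for 35289 tested probe sets from 12 different arrays; the dashed line marks equal responses. The 583 probe sets called at both times (557 higher, 26 lower) lie along the line, with 396 called at 48 h only and 723 at 72 h only on its sides.

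The 557 probe sets held 34 genes with a symbol other than a locus number, listed here after their values were seen. Among them were WRKY30, WRKY17, WRKY57, WRKY58, WRKY53, WRKY21, WRKY19, WRKY63 and WRKY34. Over the whole WRKY list 11 of 104 probe sets were higher at both times, against 557 of all 35289 tested. At 48 h 16 of the 104 WRKY probe sets were higher with Al, against 2.46% of all tested, and at 72 h 13 were, against 3%. The NAC and MYB list had 11 and 9 of 138, with 4 at both times, the P450 list 8 and 10 of 52, with 7 at both, and the glutathione S-transferase list 8 and 11 of 58, with 7 at both. WRKY53 rose by 3.68 ± 0.77 at 48 h and by 4.28 ± 0.77 at 72 h (adjusted p = 0.00462 and 0.00136). WRKY21, whose untreated arrays were at background at both times, rose by at least 3.55 ± 0.45 and 2.95 ± 0.45 (adjusted p = 2.78e-05 and 0.000275). WRKY63 lay at 6.60, 6.67 and 5.02 at 48 h and at 6.33, 7.13 and 5.71 at 72 h, against 4.42 or 4.43 in untreated roots, and rose by 1.67 ± 0.25 and 1.96 ± 0.25.

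SABATH2, a methyltransferase of the family that methylates small acids such as salicylate and jasmonate, read 10.54, 10.65 and 8.41 at 48 h and 8.30, 10.82 and 8.35 at 72 h, against 4.44 to 4.55 untreated. It rose by 5.33 ± 0.51 and by 4.66 ± 0.51 (adjusted p = 6.28e-07 and 2.23e-06), and its difference between times was -0.71 ± 0.51. In PI416937 with Al it read 4.52, 5.09 and 4.54 at 48 h and 5.14, 4.52 and 4.52 at 72 h. KR3, a disease resistance gene of the TIR type, rose in Young by 1.5 ± 0.33 and by 1.94 ± 0.33 (adjusted p = 0.00866 and 0.000919). NAC6, a NAC factor, rose by 4.44 ± 0.79 and 3.16 ± 0.79 (adjusted p = 0.00109 and 0.0199), and NAC018 by 3.67 ± 0.73 and 3.36 ± 0.73 (adjusted p = 0.00325 and 0.00707).

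Among metabolic genes, CYP82A3 rose by 5.49 ± 1.34 at 48 h and 6.59 ± 1.34 at 72 h (adjusted p = 0.0172 and 0.00412). Of its 4 probe sets, 3 were called higher at 48 h and 2 at 72 h. All 4 SFERH-2 probe sets were higher at both times. AOX1 rose by 4.23 ± 0.99 and 4.14 ± 0.99 (adjusted p = 0.0132 and 0.0146). The glutathione S-transferases GST3, GSTU41 and GSTU27 were higher at both times, with 1.93 ± 0.53 and 1.84 ± 0.53 for GSTU27. CYP93A1, PTS1, IFR, IFS2 and CHS1 of the isoflavonoid route were called at both times, IFS2 with 1.48 ± 0.32 and 1.18 ± 0.32 (adjusted p = 0.00641 and 0.0327). CHS1 here is a probe set shared between similar transcripts, with 2.36 ± 0.59 and 2.27 ± 0.59. Only 2 of the 7 CHS1 probe sets were called higher at 48 h, and 2 at 72 h. In the list of 78 for this pathway, 7 were higher at 48 h and 7 at 72 h, against 2.46% and 3% of all tested. At both times 4 were higher, against 557 of all 35289 tested.

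Immune signalling genes called at both times were EDS1-2, with 2.44 ± 0.47 and 1.86 ± 0.47, and NDR1b, with 2.71 ± 0.58 and 2.21 ± 0.58. The pathogenesis-related gene PR1-7 was called at both times as well, with 2.62 ± 0.59 and 3.66 ± 0.59. PSK5, a precursor of the phytosulfokine peptide, rose by 3.96 ± 0.89 at 48 h and by at least 4.95 ± 0.89 at 72 h. The other genes called at both times were MYB73, NRP-A, EREBP1, DR1, BZIP68 and CYP82A2. With each Young array left out in turn, 7 of the 34 kept both calls throughout: WRKY30, WRKY17, SABATH2, WRKY57, WRKY58, WRKY21 and WRKY63. Leaving out Al 48 h replicate 2 ended 20 of the 34 calls at 48 h, and leaving out Al 72 h replicate 2 ended 18 of those at 72 h. Untreated 48 h replicate 3 ended 17, Al 72 h replicate 3 ended 14, and the remaining arrays from 0 to 13.

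Among genes with the lowest called differences, none was called at both times. At 48 h CYP74A1, an allene oxide synthase of the jasmonate pathway, fell by 1.28 ± 0.32 (adjusted p = 0.0186) and stood at -0.68 ± 0.32 at 72 h. The AOS1 and AOS2 probe sets of the same list were not called at 48 h. The early nodulin gene ENOD55-2 fell by 1.14 ± 0.30 (adjusted p = 0.0332), and its untreated arrays read 6.97, 5.91 and 6.88 at 48 h and 5.27, 5.30 and 5.30 at 72 h. SPCP1, annotated as a tonoplast aquaporin through its synonyms, fell by 0.57 ± 0.14 (adjusted p = 0.0158). At 72 h IQD45 fell by 1.27 ± 0.37 (adjusted p = 0.0498), PDIQ-1A by 0.84 ± 0.24 (adjusted p = 0.0446) and the beta-tubulin gene TUBB3 by 0.65 ± 0.19 (adjusted p = 0.042). These lower calls rested on single arrays. Leaving out any 1 of the 6 arrays ended the calls of IQD45 and PDIQ-1A, and that of TUBB3 ended without any of them except Al 72 h replicate 1. The call of ENOD55-2 ended without any of its 6 arrays except untreated 48 h replicate 2. That of CYP74A1 ended without Al or untreated 48 h replicate 2, with adjusted p of 0.192 and 0.135, and that of SPCP1 without Al replicate 2 (0.237) or untreated replicates 1 (0.0832) or 2 (0.053). IQD45 also lost its call without the filter (0.0539) and without the variance trend (0.0523). TUBB3 read 13.04, 12.58 and 13.26 with Al at 48 h and 13.59, 12.88 and 13.32 at 72 h, and its untreated arrays read 13.39, 13.31 and 13.54 and then 13.85, 13.95 and 13.95.

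Some of the largest responses at 72 h were not called at 48 h. OLPa and GSTU42 were picked for this after their values were seen. Such a choice by itself favours a larger response at 72 h than at 48 h, for PR-10 too. PR-10 rose by 8.17 ± 1.60 at 72 h (adjusted p = 0.00298) and differed by 4.07 ± 1.60 at 48 h (adjusted p = 0.206). OLPa, an osmotin-like gene, rose by 4.70 ± 1.0 at 72 h, against 3.00 ± 1.0 at 48 h (adjusted p = 0.00559 and 0.112). GSTU42 rose by 6.01 ± 1.18 at 72 h, against 3.88 ± 1.18 (adjusted p = 0.00298 and 0.0718). Between the times the level of PR-10, OLPa and GSTU42 with Al differed by 1.22 ± 1.60, 0.61 ± 1.0 and 0.04 ± 1.18. The untreated level of the same genes differed by -2.87 ± 1.60, -1.09 ± 1.0 and -2.09 ± 1.18. None of these differences between times was called, and the untreated arrays at 48 h were the more widely spread. G4DT was the reverse case, with 2.82 ± 0.65 at 48 h (adjusted p = 0.0118) and 1.91 ± 0.65 at 72 h (adjusted p = 0.0957).

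To follow Al-responsive genes whose chosen difference used no Young array, probe sets were taken from the comparison of the PI416937 arrays at 48 h. The shared spread and the filter of the fit still used all 44 arrays. There 1425 were called with Al (4.04%), 1195 higher (3.39%) and 230 lower (0.652%). In Young the 1195 had a median Al response of 1.64 at 48 h (637 called higher) and of 1.35 at 72 h (531 called higher). Of all tested probe sets 2.46% and 3% were called higher at these times. Between the times in Al their median difference was -0.08, against -0.00049 for all tested probe sets, with 0 called, and in untreated roots it was 0.06. Their median level was 8.77, 9.27 and 9.20 on the Al arrays at 48 h and 8.52, 9.24 and 9.23 at 72 h. Replicate 1 was the lower array at each time, and all 6 lay above the untreated range of 6.76 to 7.01. The median difference between times ran from -0.21 to 0.12 over all alternatives, and it was above 0 when Al 72 h replicate 1 was left out, at 5.19e-05 when Al 48 h replicate 2 was left out and, at 0.07, with the run of codes as a term. The 230 lower probe sets had a median of -0.07 between times in Al and of -0.15 in untreated roots. PI416937 counts at 48 h moved with single arrays, to 492 without Al replicate 2, 624 without untreated replicate 3 and 931 without Al replicate 1.

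**Figure D4:**
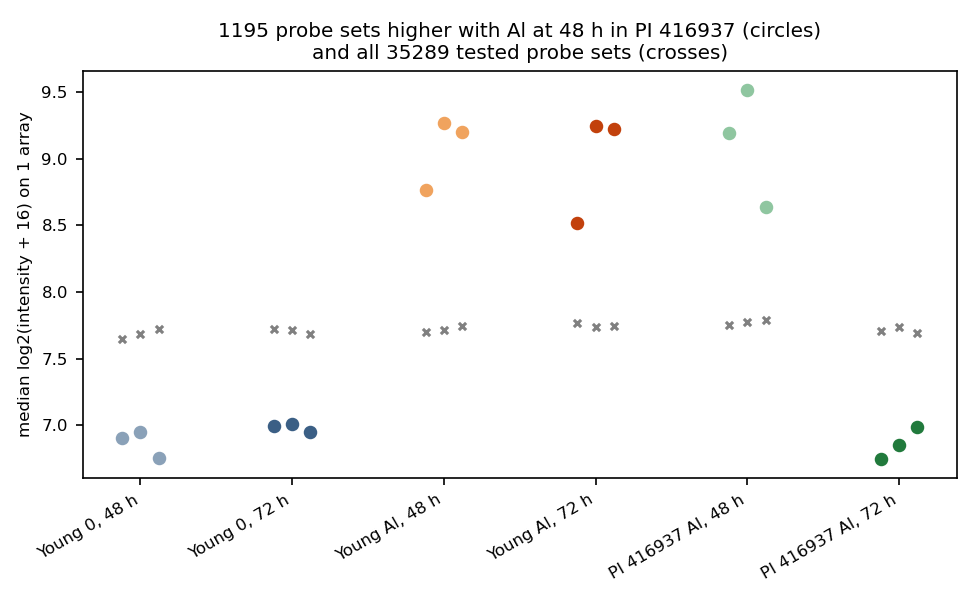
Median level on each array, as log2(intensity + 16), of the 1195 probe sets higher with Al at 48 h in PI416937 (circles) and of all 35289 tested probe sets (crosses), for untreated and Al-treated Young and Al-treated PI416937 at 48 h and 72 h. The Young Al arrays lie between 8.52 and 9.27 at both times, and those labelled PI416937, Al, 72 h between 6.75 and 6.99; the PI416937 arrays at 48 h chose the set, so their level is a description.

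The same times in PI416937 gave another picture on the labels as they stand. There 4447 probe sets were called between 72 h and 48 h in Al (12.6%), 2318 higher (6.57%) and 2129 lower (6.03%). The 869 probe sets that Al raised at 48 h in Young had a median difference of -2.08 in PI416937, and 689 of them (79.3%) were lower at 72 h. The difference that chose the set did not use these arrays, though the shared spread and the filter did. WRKY30 read 10.30, 11.07 and 8.87 at 48 h and 4.42, 4.46 and 4.44 at 72 h there, and CYP82A3 read 13.02, 12.91 and 12.13 and then 6.94, 6.17 and 6.61. Counts in PI416937 rested on its 48 h arrays above all, with 1138 calls without Al 48 h replicate 2, 2138 without replicate 1 and 7571 without replicate 3. They were 2502 without Al 72 h replicate 1.

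The difference between genotypes was tested directly, as the time difference in Young minus that in PI416937. It was called for 60 probe sets (0.17%), 42 higher (0.119%) and 18 lower (0.051%) in Young, or 47 and 39 after quantile normalisation. For the 42 the median time difference was -0.21 in Young and -3.40 in PI416937, values that the test itself chose. WRKY30 differed by 4.98 ± 0.89 between genotypes (adjusted p = 0.0105), WRKY17 by 4.94 ± 1.04 (adjusted p = 0.0371) and WRKY57 by 4.24 ± 0.71 (adjusted p = 0.00553). WRKY58 differed by 3.82 ± 0.81 (adjusted p = 0.0373). The call of WRKY57 held with each of the 12 arrays left out. That of WRKY30 ended without Young Al 72 h replicate 2 (0.0603) and without PI416937 Al 48 h replicate 2 (0.0627). The calls of WRKY17 and WRKY58 ended without any 1 array other than Young Al 72 h replicate 1 and PI416937 Al 48 h replicate 3. Of the 104 WRKY probe sets 5 were called, against 0.119% of all tested.

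Other genes of that test, named after their values were seen, were LOC100306414, with 5.63 ± 0.95, LOC100782177, with 5.62 ± 1.15, and PARP3, a poly(ADP-ribose) polymerase, with 0.92 ± 0.19 (adjusted p = 0.0319). LOC100306414 read 12.26, 12.28 and 11.16 in Young at 48 h and 10.58, 12.21 and 11.44 at 72 h. In the other direction LOC732660, with the synonym SAS3, differed by -1.55 ± 0.34 (adjusted p = 0.0448), at -0.19 ± 0.24 in Young. The count of 60 was 15 without Young Al 72 h replicate 2, 16 without PI416937 Al 48 h replicate 2, 19 without PI416937 Al 48 h replicate 1, 25 without Young Al 72 h replicate 3, 27 without Young Al 48 h replicate 1 and 32 without PI416937 Al 72 h replicate 1. It was 152 without Young Al 72 h replicate 1 and 322 without PI416937 Al 48 h replicate 3. CYP82A3, with 5.89 ± 1.89 (adjusted p = 0.217), and SFERH-2, with 2.66 ± 1.34 (adjusted p = 0.549), were not called in it.

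**Figure D5:**
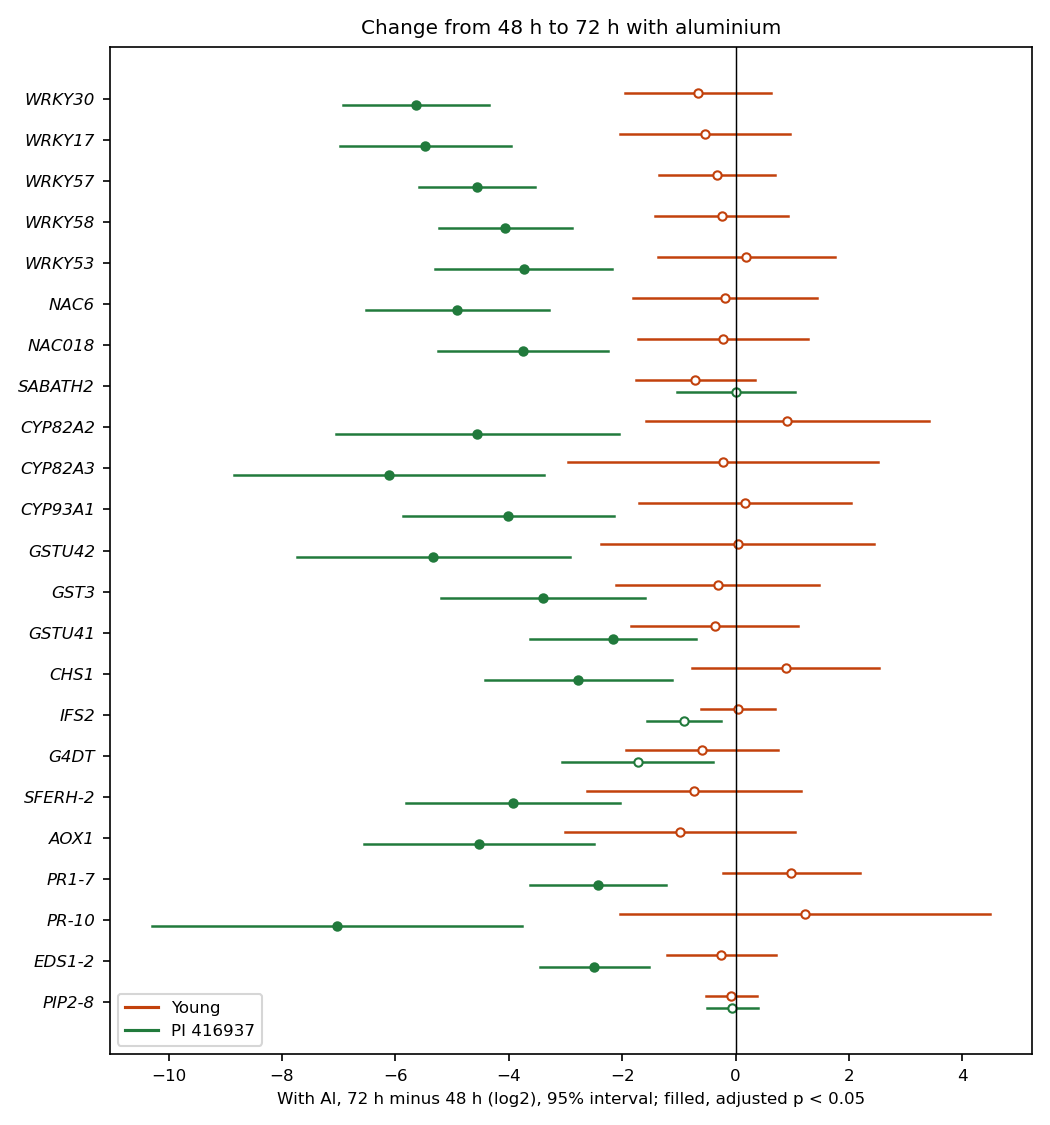
Difference between 72 h and 48 h in Al, in log2 units, with its 95% interval, for 23 genes in Young (red) and PI416937 (green); filled circles passed an adjusted p of 0.05. Every interval of Young includes 0. Most circles of PI416937 are filled and lie to the left, as WRKY30 does at -5.64 against -0.66 in Young. Among the probe sets of a gene picked for naming, the one with the largest Al response at 72 h in Young is shown. For SFERH-2 that response is 4.92, while another of its probe sets reached 5.80.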

How the data were processed

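The authors deposited 1 table of intensities, on a linear scale, for 61170 probe sets on 44 arrays, with array medians between 6.56 and 7.52. How the arrays were summarised and normalised is not given in the sources used here. Per the labels, biotin-labelled cRNA of root tip RNA was hybridised to Affymetrix GeneChips. Values were taken as log2(intensity + 16). Of 37593 soybean probe sets, 35289 with a group mean above 4.41 in at least 1 of the 16 groups were tested, and the median levels of arrays spanned 0.138, so no further normalisation was applied. limma 3.58.1 in R 4.3.3 fitted 16 group means over all 44 arrays (28 residual and 1.94 prior degrees of freedom, variance trend), with Benjamini-Hochberg adjustment within each of 8 comparisons. All groups share one spread per probe set, which can be too small for a bright group of a gene that is at background elsewhere. No 2 arrays were identical.

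Of the tested probe sets 8418 had 1 annotated gene (5887 genes, 959 with a symbol other than a locus number), and 26871 had none. Names come from the platform annotation, updated through RefSeq gene numbers of Glycine_max_v4.0. Probe sets whose names end in s_at or x_at can read similar transcripts, as for CHS1, CYP82A2 and PR-10. The 26 gene lists are patterns of symbols and synonyms and hold some stray members, such as LOXB1 among storage proteins. The members and lists were chosen with earlier results of these data known. Named genes were, in each Young comparison, the 3 highest and 3 lowest called genes with a symbol, and 9 genes of earlier interest whether called or not, each by its probe set with the smallest p in that comparison. For 72 h against 48 h in Al the rule named more called genes per direction and per list, and no annotated gene was called. Other names are marked as chosen after their values were seen.

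Same-numbered arrays of Young in Al at 48 h and 72 h had residual correlations of 0.07, 0.18 and 0.36, so the numbers do not pair these arrays. Those of Al and untreated Young at 48 h had 0.38, 0.41 and 0.48, by which the data pair them. Alternatives were another pseudocount, no filter, quantile normalisation, no variance trend, only the groups compared, the replicate number as a block, the run of sample codes as a term, the last run alone at 48 h, and leaving out each array. The sequences of the probe sets and the positions of their genes were not used here.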

Additional observations from a re-analysis of the deposited data

Results flagged for a closer look

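The time difference in Al differed between the genotypes for 60 probe sets in the direct test of Young minus PI416937. Among them were WRKY30 (4.98), WRKY57 (4.24) and WRKY58 (3.82), genes of earlier interest in the series, and WRKY17 (4.94), named for the size of its called difference, all in log2 units. With the last run of codes alone at 48 h all 4 of these calls ended, with limma adjusted p of 0.646, 0.345, 1 and 1. They rest on the arrays labelled PI416937, Al, 72 h, whose WRKY30 levels of 4.42, 4.46 and 4.44 lie with the untreated arrays, and whether those labels hold was not tested.

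Of the 23350 probe sets for other organisms, which enter no comparison, 1 had all 6 Young Al arrays above all 6 untreated ones by more than 1 log2 unit. Its lowest Al array exceeded its highest untreated array by 1.40, with means of 7.79 and 7.40 with Al at 48 h and 72 h and of 4.39 and 4.40 without.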

How the results depend on the processing

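For the comparison of 72 h with 48 h in Al, the 1 call stayed at 1 with another pseudocount, without the filter and after quantile normalisation. It became 0 without the variance trend, with the run of codes as a term and with the compared groups alone, 4 with a replicate block, and 50 with the last run alone at 48 h. The 7 untreated calls became 3 with a pseudocount of 1, 17 after quantile normalisation, 2 with the run of codes as a term, 54 with the last run alone (1 higher, 53 lower), 1 with the compared groups alone (lower) and 11 with a replicate block. The treatment test had 0 calls in all of these except 50 with the last run alone. The Al response at 48 h (979) became 100 with the last run alone and 463 with the compared groups alone, and at 72 h (1306) it became 2215 with the run of codes as a term and 3183 with the compared groups alone. In PI416937 the 4447 calls became 2444 with the run of codes as a term, 151 with the last run alone and 581 with the compared groups alone, and the 1425 at 48 h became 245 and 246 in the last 2 of these. The 60 genotype calls (42 higher, 18 lower) became 45 (21 higher, 24 lower) with the last run alone, where the calls of WRKY30, WRKY57, WRKY58 and WRKY17 ended, 92 with the run of codes as a term and 106 with the compared groups alone.

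Leaving out single arrays gave 1 to 21, 2 to 102, 0 to 3, 407 to 972, 287 to 2139, 1138 to 7571, 15 to 322 and 492 to 1626 calls, in the order Young Al, Young untreated, their difference, Al response at 48 h and at 72 h, PI416937 Al, genotype difference, and PI416937 Al response at 48 h. Numbers that are shared do not pair Young Al arrays of 48 h and 72 h, not every array correlating best with its own number. The replicate block, which the data support for Young at 48 h, gave 1075 calls there and ended none of the 34 persisting calls at 48 h. At 72 h it ended 1 of the 34, that of WRKY34, and also the lower calls of IQD45 (adjusted p = 0.0605) and PDIQ-1A (0.0555).

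None of the 9 genes of earlier interest was called between 48 h and 72 h under any of these settings. WRKY63, not called in the main setting, was called with the last run alone, at 1.37 (adjusted p = 0.0175). No called value of a named gene changed direction. With the last run alone, 30 of the 34 persisting genes lost their call at 48 h, and 7 at 72 h. With the compared groups alone, 19 lost it at 48 h, among them CYP82A3, SFERH-2, AOX1, PSK5, WRKY53, CHS1 and IFS2, and 1 at 72 h. The lower calls of CYP74A1, ENOD55-2 and SPCP1 ended under both of these settings, those of IQD45 and PDIQ-1A with the last run alone, and that of TUBB3 with the compared groups alone. With the last run alone each 48 h group is 1 array, assumed to vary like the other groups. The call of the unannotated probe set was lost without the variance trend (adjusted p = 0.186), with the run of codes as a term (0.067) and with the compared groups alone (0.52). Signal over background limits the dim probe sets, and 3 arrays per group limit all of them.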
